A study of Mus musculus with 232 samples.

Results

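Radial glia-like cells and young astrocytes were compared within the same captures of newborn mouse dentate gyrus. The cells were taken by the cluster that the authors' cell table gives them, RGL_young or Immature-Astro, at P0 (the day of birth) and P5. There were 566 RGL_young and 638 Immature-Astro cells at these ages, 1204 of the 24185 cells of the series, and they came from 4 libraries that held 9214 cells in all. All 4 libraries were made from CD-1 mice with no transgene named, and the sex of the pooled animals is given as unknown. Microdissected tissue was dissociated with papain and the RNA of single cells was captured on the 10X Chromium system, kit version 2. The value for each gene and cell is a count of unique molecular identifiers (UMIs), that is, of distinct captured molecules. The authors drew the clusters on these same cells and genes, so every difference between them given here, with its p, describes their split and is no independent evidence for it. The later ages compared are P19, P23 and P120. They come from other libraries, but rest on cluster names of the same authors. The P23 library is from CD-1 mice and the P19 library from another strain, named below. The P120 library is from hGFAP-GFP mice, which carry a transgene.

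Radial glia-like cells are the stem cells of the dentate gyrus. They give rise to granule neurons through dividing precursors, and they also make astrocytes, with which they share glial genes such as the glutamate transporter Slc1a3 and the intermediate filament Gfap. Astrocytes take up glutamate and potassium, move water, couple to each other through gap junctions and supply lipids and matrix. In the mouse these functions are switched on after birth, while the stem cells settle in the subgranular zone.

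The 2 P0 libraries held 139 and 186 RGL_young cells and 57 and 67 Immature-Astro cells, and the 2 P5 libraries held 113 and 128 RGL_young and 269 and 245 Immature-Astro cells. UMIs were summed over the cells of a cluster in a library, which gave 8 sums of 277863 to 1195688 UMIs, and levels are given as counts per 1000000 UMIs of a sum (CPM). Values in the 4 libraries are always listed as first P0, second P0, first P5 and second P5. Median UMIs per cell were 3598 to 3862 in RGL_young and 4006 to 5110 in Immature-Astro. After thinning to 1000 UMIs, median genes per cell were 678 to 690 in RGL_young and 662 to 669 in Immature-Astro, so RGL_young cells showed more genes at equal depth in every library. The labels do not say that the libraries of one age came from separate animals, and p-values then measure only the spread between these libraries, which may be technical. Age cannot be told apart from the capture: cell names of both P0 libraries start with 10X83 and those of both P5 libraries with 10X84. A P18 library also starts with 10X83 and a P23 library with 10X84, and the labels do not say what these prefixes mean. The X-inactivation transcript Xist moved with age and capture, at 673, 437, 0 and 0 CPM in RGL_young and 202, 275, 0 and 0.897 CPM in Immature-Astro. Y-linked Ddx3y was present in all 8 sums. Xist also differed between the clusters (1.04 ± 0.22, adjusted p = 0.0026), and the part of the animals' sex in the results was not tested. As Xist was near 0 at P5 only, age cannot be told apart from the sex of the pooled animals either. Of the 1204 cells, 3 barcodes occurred in more than 1 library.

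Nearly all astrocyte genes tested were lower in RGL_young, while stem cell genes differed in both directions. A gene counts as called where its p, adjusted by Benjamini and Hochberg over all 7683 genes tested, was under 0.05 in edgeR's quasi-likelihood test with the library as a block, and log2 fold changes are RGL_young minus Immature-Astro with their standard errors (4 pairs of sums). In all 1560 genes were called, 20.3% of those tested: 660 were higher in RGL_young (8.59%) and 900 were lower (11.7%). Counts of called genes in the lists below stand beside these shares. Without the second P5 library 906 genes were called, the P0 libraries alone gave 892 and the P5 libraries alone 1960. Of a list of 36 astrocyte genes, 34 were tested, 32 were lower in RGL_young and 0 higher, with a median of -1.53 against 0.01 over all genes tested. Of 30 radial glia and neural stem cell genes, all of them tested, 18 were higher and 5 lower, with a median of 0.67. The 12 genes with the largest called fold changes in each direction, at a mean of 50 CPM or more and with the same sign in all 4 libraries, are drawn by library in the plot of named genes.

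**Figure D1:**
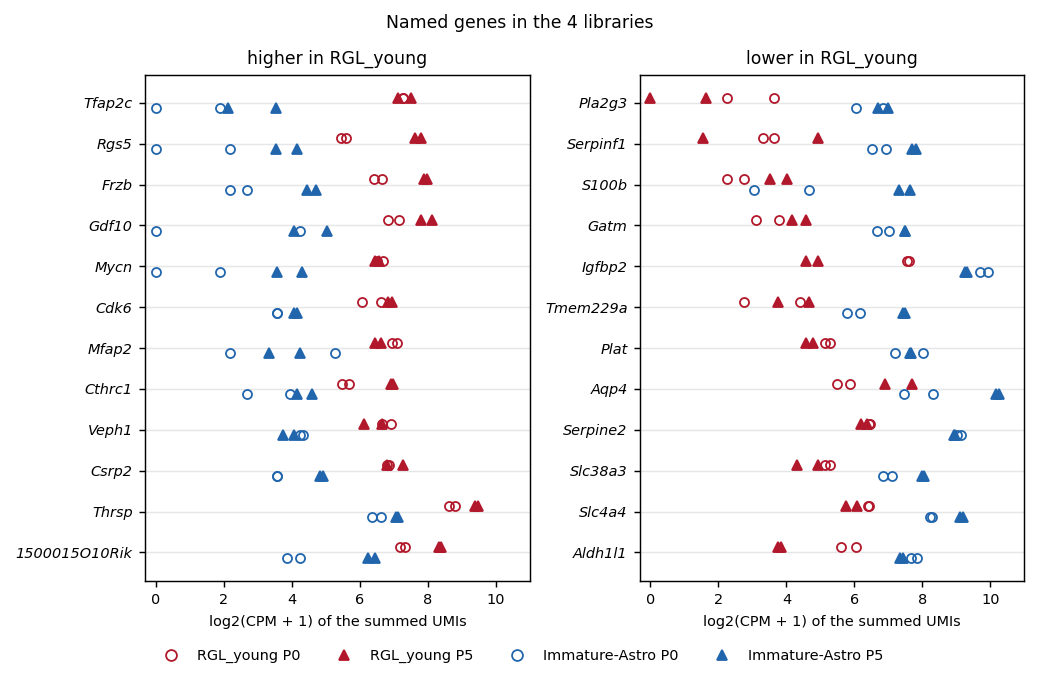
Levels of the 24 named genes as log2(CPM + 1) in each of the 4 libraries, for RGL_young (red) and Immature-Astro (blue), with P0 as open circles and P5 as filled triangles. The left panel holds the 12 genes higher in RGL_young, the right panel the 12 that were lower, and in each library the 2 clusters lie on the side the panel names; S100b at P0 is the pair in the right panel with the smallest gap.

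Several transcription factors of forebrain stem cells were higher in RGL_young. Tfap2c (AP-2 gamma, a transcription factor of radial glia and basal progenitors in the forebrain) stood at 154, 155, 182 and 139.9 CPM in RGL_young and at 0, 2.73, 3.35 and 10.8 CPM in Immature-Astro. It was high in all RGL_young sums and near 0 in all Immature-Astro sums, and the log2 fold change was 4.70 ± 0.31 (adjusted p = 8.2e-09). In Immature-Pyr, the young pyramidal neurons of the same libraries, it averaged 0.908 CPM. The part of free RNA in the droplets in such low levels was not tested. In nIPC-perin, the dividing precursors of these ages, Tfap2c averaged 110.4 CPM. Mycn, a growth-promoting transcription factor, stood at 102, 89.9, 86 and 94.5 CPM against 0, 2.73, 10.9 and 18.8 CPM, with a log2 fold change of 2.96 ± 0.31 (adjusted p = 1.6e-06). Emx1, a homeobox gene of the dorsal forebrain, stood at 121, 111, 149 and 115 CPM against 18, 27.3, 29.3 and 33.2 CPM (2.06 ± 0.19, adjusted p = 4.1e-07). Its relative Emx2 differed less, with a log2 fold change of 0.88 ± 0.15 (adjusted p = 3.3e-04).

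Of 34 genes for forebrain patterning and glial transcription factors, 33 were tested, 16 were higher in RGL_young and 6 lower, with a median of 0.50. The higher ones included the cortical patterning genes Lhx2 (0.58), Lhx9 (2.59), Dmrta2 (1.25) and Dmrt3 (1.84). Zbtb20, a repressor needed for hippocampal identity, stood at 1820.0, 1846, 2172 and 2502 CPM in RGL_young and 662, 676, 1224 and 1409 CPM in Immature-Astro, higher in RGL_young in every library (1.03 ± 0.13, adjusted p = 8.8e-06). The nuclear factor I genes Nfib (0.50) and Nfix (0.76) were higher too, and Nfia had 0.29 with adjusted p = 0.098. The 6 lower ones were Sox21, Rfx4, Etv5, Dbx2, Olig1 and Olig2. Olig1, a gene of the oligodendrocyte line that some young astrocytes also use, stood at 136, 200.2, 361 and 166 CPM in RGL_young and 428, 518, 593 and 523 CPM in Immature-Astro (-1.40 ± 0.15, adjusted p = 1.9e-06). The committed markers of that line were near 0: Pdgfra had 31 UMIs in all Immature-Astro sums and 1 in RGL_young, and Cspg4 had 19 and 2. In OPC, the oligodendrocyte precursors of these libraries Pdgfra averaged 720.1 CPM.

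Of 35 Wnt pathway genes, 25 were tested, 7 were higher in RGL_young and 2 lower, with a median of -0.12. Among all genes tested, 8.59% were higher and 11.7% lower. Wnt ligands act through Frizzled receptors and beta-catenin, and in the dentate gyrus they act on stem cells and their progeny. Frzb, a secreted Frizzled-related protein that binds Wnt ligands, stood at 85.3, 100.1, 235 and 253 CPM in RGL_young and 3.60, 5.45, 20.9 and 25.1 CPM in Immature-Astro (3.42 ± 0.20, adjusted p = 3.2e-09). It was higher at P5 than at P0 in both clusters, and the RGL_young sums stayed above all Immature-Astro sums. Sfrp1, of the same family, stood at 197, 151, 203 and 223 against 75.6, 101, 45.2 and 46.6 CPM (1.59 ± 0.22, adjusted p = 3.4e-05). The ligand Wnt8b, made by the cortical hem and the young hippocampus, had 134 UMIs in RGL_young and 4 in Immature-Astro, at 60.7, 41.8, 69.2 and 68 and 0, 0, 0.836 and 2.69 CPM. The Wnt agonist Rspo2 had 40 and 2 UMIs, a CPM ratio of 25.4 with a 95% interval of 6.60 to 217 for counting error only. The receptor Fzd1 (1.71), the transcription factor Lef1 (1.05) and Rspo3 (1.65) were also higher. The 2 lower were the ligand Wnt7a (adjusted p = 0.0083) and the receptor Tnfrsf19 (-0.57). Axin2, a common target of the pathway, had -0.29 with adjusted p = 0.48. Sfrp5, a further secreted Frizzled-related gene, was too low to test, with 3 UMIs in RGL_young and 12 in Immature-Astro.

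Further named genes were higher in RGL_young. Gdf10, a ligand of the BMP family, stood at 142, 113, 224 and 279.7 CPM in RGL_young and 18, 0, 15.9 and 32.3 CPM in Immature-Astro (3.42 ± 0.24, adjusted p = 1.7e-08). Cdk6, a kinase that drives entry into the cell cycle, stood at 66.4, 98.8, 113 and 123 against 10.8, 10.9, 15.9 and 17 CPM (2.77 ± 0.22, adjusted p = 5.4e-08). Thrsp, a regulator of fatty acid synthesis, stood at 451, 399, 679 and 716 against 97.2, 81.8, 139.7 and 133 CPM (2.23 ± 0.13, adjusted p = 2.6e-09). All 3 were higher in RGL_young in every library. Rgs5, which turns off G protein signals and is best known from pericytes, stood at 47.4, 43.1, 222 and 197 against 3.60, 0, 16.7 and 10.8 CPM (3.88 ± 0.24, adjusted p = 5.1e-09). Of the list for mural and meningeal cells, 3 of 10 genes were tested, and besides Rgs5 the matrix gene Dcn was called, with 47 UMIs in RGL_young and 2 in Immature-Astro. Summed over that list, levels were 108 to 283 CPM in RGL_young and 21.6 to 83.6 CPM in Immature-Astro, and leaving out Rgs5 no cell of either cluster held 10 or more of its UMIs. The other named genes of this direction were the matrix genes Mfap2 (2.59) and Cthrc1 (2.47), Veph1 (2.46), the LIM protein Csrp2 (2.38) and 1500015O10Rik (2.18).

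On the astrocyte side, the named genes with the largest differences were Pla2g3, a secreted phospholipase (-4.42), Serpinf1 (-3.74), S100b and the creatine synthesis enzyme Gatm (-3.36). S100b, a calcium-binding protein of maturing astrocytes, stood at 5.69, 3.80, 10.5 and 15.1 CPM in RGL_young and 7.20, 24.5, 158 and 199 CPM in Immature-Astro (-3.47 ± 0.31, adjusted p = 2.3e-07). At P0 the sums of the clusters lay close together in the first library, and at P5 those of Immature-Astro were the higher by far. Of the clusters compared below, the oligodendrocyte precursors had the highest mean level of S100b. Aqp4, the water channel of astrocyte endfeet, stood at 43.6, 57, 205 and 117 against 176, 316, 1139 and 1214 CPM (-2.76 ± 0.17, adjusted p = 5.1e-09). Its highest RGL_young sum lay between the P0 sums of Immature-Astro, so the clusters separated within each library but not across ages. Serpine2, a secreted protease inhibitor, stood at 85.3, 87.4, 81.8 and 71.8 against 515, 564, 483 and 497 CPM, with changes of -0.20 and -0.19 with age that were not called (-2.75 ± 0.13, adjusted p = 2.9e-10). Igfbp2, which binds insulin-like growth factors, stood at 186, 195, 29.4 and 22.7 against 982, 834, 628 and 614 CPM (-3.09 ± 0.27, adjusted p = 2.1e-07). The folate enzyme Aldh1l1, a standard astrocyte marker, stood at 64.5, 48.1, 12.6 and 13.2 against 202, 229, 171 and 161 CPM (-2.62 ± 0.24, adjusted p = 2.9e-07). The lowest Immature-Astro sum of each of Serpine2, Igfbp2 and Aldh1l1 was above the highest RGL_young sum.

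The remaining named genes of the astrocyte side were Tmem229a (-2.89), the plasminogen activator Plat (-2.77), the glutamine transporter Slc38a3 (-2.70) and the bicarbonate transporter Slc4a4 (-2.63). All 14 tested genes of 16 for glutamate, GABA, potassium and water handling were lower in RGL_young, with a median of -1.70. The main glutamate transporter Slc1a2 stood at 415, 486, 864 and 850.5 CPM in RGL_young and 705, 641, 2595 and 2474 CPM in Immature-Astro (-1.20 ± 0.16, adjusted p = 2.5e-05). Glul, which turns glutamate into glutamine, stood at 362, 405, 281 and 227 against 846, 1006, 1133 and 1143 CPM (-1.80 ± 0.15, adjusted p = 1.6e-07). The GABA transporter Slc6a11 (-1.88), the potassium channel Kcnj10 (-0.73) and the gap junction protein Gja1 (-1.95) were lower as well. Of the 34 astrocyte genes tested, those not called were Clu (-0.61, adjusted p = 0.059) and Sox9 (0.25, adjusted p = 0.2). The gap junction gene Gjb6 was too low to test, with 19 UMIs in Immature-Astro and 0 in RGL_young, at least 4.98-fold higher when 3 UMIs are taken as the floor for the RGL_young sums together.

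Of 25 lipid and sterol genes, 22 were tested, 17 were lower in RGL_young and 0 higher, with a median of -0.97. They included the lipid carrier Apoe, at 2415, 2948, 2732 and 2746 CPM in RGL_young and 5996, 6125, 10646 and 10647 CPM in Immature-Astro (-1.66 ± 0.14, adjusted p = 1.5e-07), the desaturase Scd1 (-2.06), the fatty acid carrier Fabp5 (-1.67) and the sterol enzyme Hmgcs1 (-0.94). Of 30 genes for extracellular matrix and adhesion, 24 were tested, 14 were lower and 1 higher, with a median of -0.68. Ncan, a proteoglycan of the brain matrix, stood at 745, 863, 633 and 571 against 2775, 2399.8, 4358 and 4183 CPM (-2.34 ± 0.18, adjusted p = 4.5e-08). The related Bcan (-2.27) and the link protein Hapln1 (-2.29) were lower too, and the gene that was higher was Sparc (0.57, adjusted p = 0.034).

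Several genes commonly used to mark neural stem cells did not set the clusters apart. Nes, the intermediate filament nestin, stood at 72, 62.1, 41.9 and 22.7 CPM in RGL_young and 82.8, 90.0, 22.6 and 27.8 CPM in Immature-Astro (-0.18 ± 0.24, adjusted p = 0.65). Sox2, a transcription factor of neural stem cells and astrocytes, stood at 288, 241, 264 and 321 against 234, 177, 331 and 339 CPM (-0.04 ± 0.14, adjusted p = 0.88). Over the 4 libraries the clusters overlapped for both genes, and the sign turned with age: Nes had -0.49 at P0 and 0.27 at P5, and Sox2 had 0.27 and -0.27. The turn itself was not called for Nes (adjusted p = 0.42) or Sox2 (adjusted p = 0.13). Hes5, a target of Notch, was lower in RGL_young, at 779, 787, 533 and 449.8 against 1537, 1134, 677 and 698 CPM (-0.71 ± 0.12, adjusted p = 2.7e-04). Without the library block its adjusted p was 0.081, in a fit that also had no term for age. The brain lipid-binding protein Fabp7, a classic radial glia gene, was also lower, at 13202, 12142, 9633 and 10416 against 34143, 27952, 14958 and 15274 CPM (-1.03 ± 0.14, adjusted p = 2.4e-05). So was the cyclin Ccnd2, at 711, 715, 509.5 and 552 against 1436, 1568, 806 and 788 CPM (-0.92 ± 0.12, adjusted p = 2.0e-05). In every library Hes5, Fabp7 and Ccnd2 were higher in Immature-Astro. Slc1a3 (-0.56, adjusted p = 5.6e-04) was lower in RGL_young, with an adjusted p of 0.061 without the block. The 7 stem cell genes not called were Nes, Sox2, Sox3, Sox9, Hes1, Hopx and Rhcg.

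Markers were checked against all 14 clusters with enough cells in these libraries. Of 12 markers of RGL_young, 7 were higher in RGL_young and 1, Hes5, was lower. RGL_young had the highest mean level of Hopx, Pax6 and Tfap2c, and it ranked in the top 2 clusters for 9 of the 12. Wnt8b, Vnn1, Riiad1 and Sox2 were highest in the ependymal cluster, Vim and Lpar1 in VLMC (vascular and leptomeningeal cells), and Nes in the endothelial cluster. Of 12 markers of Immature-Astro, 11 were lower in RGL_young. Immature-Astro was in the top 2 clusters for all 12 and the highest for 7. Gja1 and Gjb6 were highest in VLMC, Agt and Mlc1 in the ependymal cluster and S100b in OPC. Gjb6 averaged 525 CPM in VLMC and 4.11 CPM in Immature-Astro. Hes5 and Rhcg, both in the RGL_young set, were highest in Immature-Astro, so those markers did not go with the label. Of 6 markers shared by both, 4 were lower in RGL_young and 0 higher.

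In single cells the 2 sets of markers overlapped between the clusters. Each cell was thinned to 2000 UMIs and the UMIs of the 12 markers of each side were summed. RGL_young cells had a median of 5, 5, 4 and 4 UMIs of their own markers and 4, 5, 7 and 7 of astrocyte markers. Immature-Astro cells had 5, 5, 3 and 3 UMIs of RGL_young markers and 10, 9, 18 and 18 of astrocyte markers. Medians in Immature-Pyr neurons were 0 for both sums. At P0 the clusters thus had equal medians for the sum of RGL_young markers and differed in that of astrocyte markers. Abundant markers weigh most in such a sum, and equal medians do not mean that each marker was equal. At P0 the abundant Hes5 was lower in RGL_young (-0.84), and the less abundant Lpar1 (3.20) and Riiad1 (2.67) were higher. Cells with more RGL_young than astrocyte markers made up 61.9%, 50.5%, 21.2% and 20.3% of RGL_young cells and 24.6%, 11.9%, 2.23% and 1.63% of Immature-Astro cells. Since the clusters were drawn on these genes, these values describe the cells and test nothing.

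**Figure D2:**
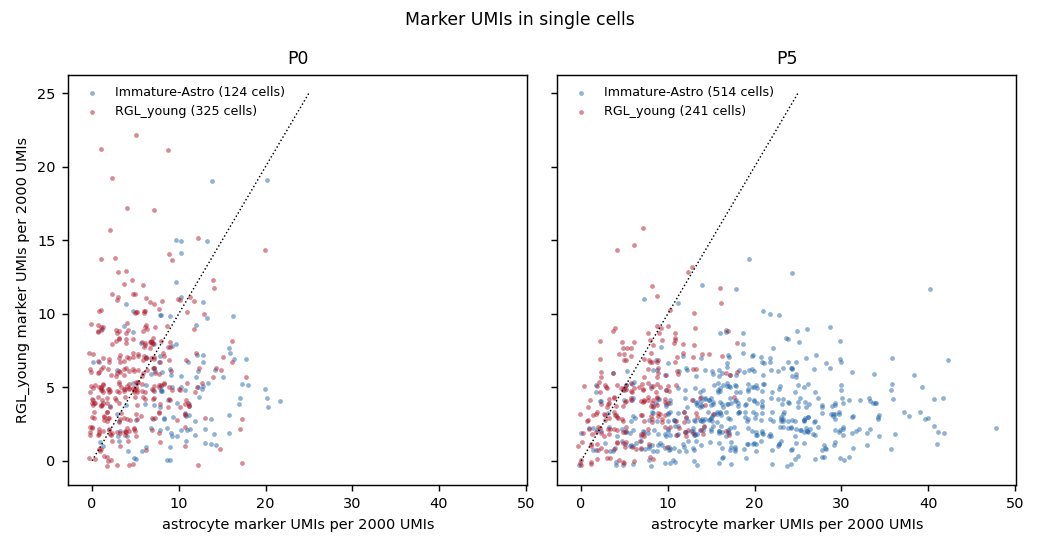
UMIs of the 12 RGL_young markers (vertical axis) against UMIs of the 12 astrocyte markers (horizontal axis) in each cell thinned to 2000 UMIs, at P0 (left) and P5 (right), with a small random shift to separate points and a dotted line at equal sums. RGL_young (red) and Immature-Astro (blue) overlap at P0, where astrocyte medians are 4 to 5 and 9 to 10, and lie further apart at P5, where they are 7 and 18.

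Of 24 genes of neuronal commitment, 18 were tested, 10 were higher and 0 lower, with a median of 0.79. The proneural factor Neurog2 stood at 56.9, 124, 105 and 77.5 CPM in RGL_young and 3.60, 5.45, 4.18 and 8.07 CPM in Immature-Astro (3.88 ± 0.29, adjusted p = 2.9e-08). Prox1, which specifies granule neurons, stood at 66.4, 82.3, 143 and 127 against 18, 19.1, 46 and 71.8 CPM (1.30 ± 0.21, adjusted p = 1.5e-04). Both were higher in RGL_young in every library. In Immature-GC, the young granule neurons of the same libraries, Prox1 averaged 681 CPM and Neurog2 14.4 CPM. The intermediate progenitor genes Insm1 (3.54) and Eomes (2.81) and the neuronal genes Igfbpl1 (1.74) and Dcx (0.91) were higher too. The later neuronal genes Neurod1, Neurod2, Neurod6, Stmn2 and Tubb3 were not called. Of 16 genes of pyramidal and granule neurons, 13 were tested, 2 were higher and 1 lower, against 8.59% and 11.7% of all genes tested. Their summed level was 504 to 894 CPM in RGL_young and 414 to 661 CPM in Immature-Astro, and the NMDA receptor gene Grin2b (1.59) was called besides Dcx. The neuronal list held 10 or more UMIs in 27 cells of each cluster. Without all cells with that many UMIs of any list of other cells, 621 genes were higher and 869 lower.

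Genes of a cell cycle list were low in both clusters, and the few that were called were higher in RGL_young. Summed over the 15 genes of the list, levels were 204 to 250 CPM in RGL_young and 79.8 to 166 CPM in Immature-Astro. Of the 15, 5 were tested and 3 were higher in RGL_young, against 8.59% of all genes tested: the replication genes Pcna (0.88), Mcm5 (1.67) and Rrm2 (0.96). Outside that list, the cyclin Ccnd2 was lower in RGL_young (-0.92) and Cdk6 higher (2.77). The mitotic genes Mki67, Top2a, Cdk1 and Ccnb1 were too low to test. Cenpf, the mitotic gene that was tested, had 0.88 with adjusted p = 0.11, and averaged 558 CPM in nIPC-perin against 30.3, 24.1, 18.9 and 15.1 CPM in RGL_young.

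In the BMP pathway, whose signal favours glial fate and stem cell quiescence, 13 of 23 genes were tested, 8 were lower in RGL_young and 1 higher, with a median of -0.82. Among all genes tested, 11.7% were lower and 8.59% higher. The receptors Bmpr1a (-1.08), Bmpr1b (-1.77) and Bmpr2 (-0.82) were lower. Id3, an inhibitor of proneural factors that BMP signals induce, stood at 863, 912, 843 and 701 CPM in RGL_young and 2559, 2209, 2503 and 2678 CPM in Immature-Astro (-1.68 ± 0.12, adjusted p = 1.6e-08). Id1 (-0.78) and Id2 (-1.04) were lower as well, as were the extracellular BMP inhibitors Nog (-1.89) and Chrdl1 (-1.88), while the pseudoreceptor Bambi (1.66) was higher. Id4 had 0.27 with adjusted p = 0.3. In the FGF pathway 14 of 17 genes were tested, 8 were lower and 0 higher, with a median of -0.91. These included the receptor Fgfr3 (-1.88), the ligand Fgf1 (-2.81) and the targets Etv4 (-1.26), Etv5 (-1.29), Spry2 (-0.78) and Dusp6 (-1.07). Fgfr1 and Fgfr2 were not called.

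In the Notch pathway 12 of 23 genes were tested, 2 were higher and 5 lower, with a median of -0.17. Among all genes tested, 8.59% were higher and 11.7% lower. The higher ones were the receptor Notch2 (0.83) and the pathway's DNA-binding protein Rbpj (0.90). The lower ones were the receptor Notch3 (-1.65), the ligand-like Dner (-2.08) and the targets Hes5, Hey1 (-1.08) and Nrarp (-0.80). Notch1 had 0.02 with adjusted p = 0.94. In the Sonic hedgehog pathway 7 of 12 genes were tested, 2 were higher and 0 lower. Both encode co-receptors: Gas1, at 434, 479, 585 and 709 CPM in RGL_young and 148, 125, 141 and 165 CPM in Immature-Astro (1.86 ± 0.13, adjusted p = 1.6e-08), and Cdon (1.65). The receptor Ptch1, itself a target, had -0.07 with adjusted p = 0.85.

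**Figure D3:**
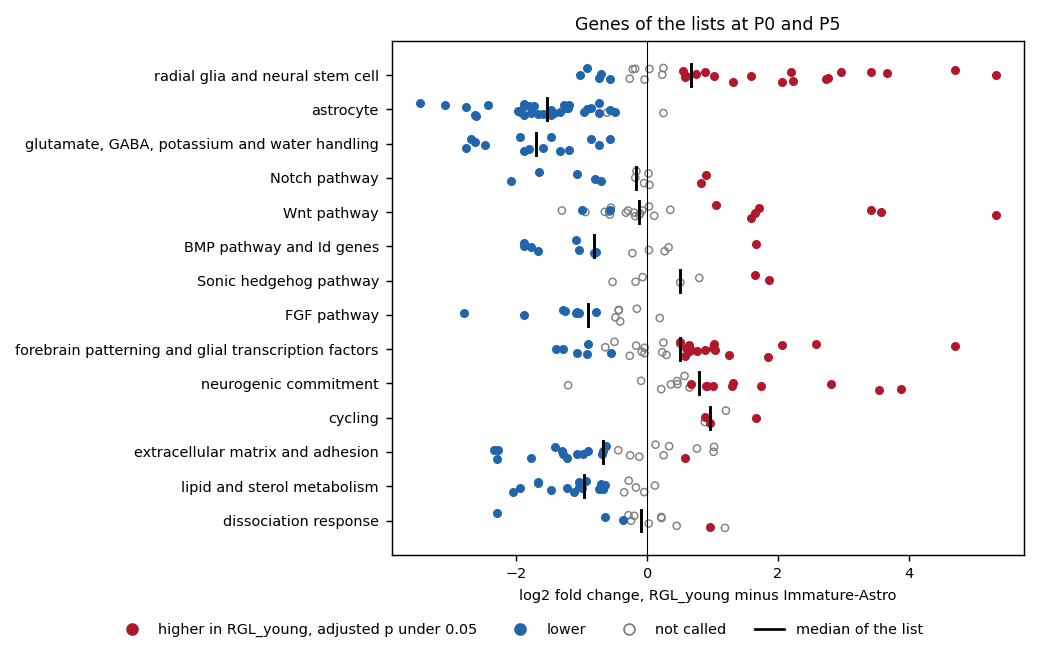
Log2 fold change of each tested gene of 14 lists (horizontal axis, RGL_young minus Immature-Astro), 1 row per list, with called genes in red (higher) or blue (lower), other genes as open grey circles and the median of a list as a black bar. The astrocyte, transport, lipid, FGF and BMP lists lie mostly left of 0, with medians of -1.53, -1.70, -0.97, -0.91 and -0.82, and the stem cell and neurogenic lists mostly right, with medians of 0.67 and 0.79.

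The promoters of Frzb and S100b are printed as examples from opposite sides. Each is the 100 bases before the RefSeq start (GRCm38.p6), read along the gene, with a motif match in capitals: CAGCTG, an E-box of proneural factors, for Frzb at chr2:80447397-80447496 on the minus strand, and TTGGCA, a half-site of nuclear factor I, for S100b at chr10:76253736-76253835 on the plus strand.

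Frzb: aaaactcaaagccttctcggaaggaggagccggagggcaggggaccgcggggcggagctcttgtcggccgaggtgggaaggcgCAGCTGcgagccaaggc
S100b: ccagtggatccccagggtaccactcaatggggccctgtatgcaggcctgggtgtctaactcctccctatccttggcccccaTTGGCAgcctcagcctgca

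The matches lie 17 to 12 bases and 19 to 14 bases before the start. In the 250 bases before the start, searched on both strands, CAGCTG occurred in 12.9% of promoters of genes higher in RGL_young, 12.8% of those lower and 10.8% of all genes tested. TTGGCA occurred in 8.43%, 11.1% and 9.22%, and CTTTGAT, a site of the Wnt effectors TCF and LEF, in 1.48%, 2.35% and 2.15%. Over all promoters searched the shares were 13.0%, 12.3% and 3.21%. Promoters of a single chromosome were left out of every share and count given here. Promoters were matched by symbol for 496 of the 660 higher and 690 of the 900 lower genes, and differences between these shares were not tested. A match is a description of letters only.

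Between P0 and P5 many genes changed within each cluster. In Immature-Astro 1450 genes were called, 18.9% of those tested, with 731 higher at P5 (9.51%) and 719 lower (9.36%). Without the second P0 library 845 were called. In RGL_young 519 genes were called, 6.76%, with 251 higher (3.27%) and 268 lower (3.49%). Without the first or the second P5 library 298 and 252 were called. A count in each cluster does not test the difference, which is the test of the cluster difference at P5 minus that at P0. It called 253 genes, 3.29%: 154 with a more positive difference at P5 (2.0%) and 99 with a more negative one (1.29%). With no filter on low counts those numbers were 162 and 200. Leaving out the second P0 library left 75 calls, and leaving out the first P0 library left 154. The Immature-Astro sums at P0 hold 57 and 67 cells and are the smallest of the 8.

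Many astrocyte genes rose with age. At P5, 26 of 34 were higher and 3 lower in Immature-Astro, against 10 higher and 3 lower in RGL_young. The cluster difference of 14 was more negative at P5 and of 2 more positive. Gja1 stood at 77.7, 93.7, 157 and 163 CPM in RGL_young and 115, 205, 855 and 888 CPM in Immature-Astro, so it rose in both (0.86 ± 0.19 and 2.36 ± 0.15), and the difference widened by -1.49 (adjusted p = 0.0014). Clu, a secreted chaperone, stood at 324, 291, 294 and 319 against 234, 232, 722 and 724 CPM, and its change was -0.02 ± 0.12 in RGL_young (adjusted p = 0.98) and 1.59 ± 0.12 in Immature-Astro (adjusted p = 1.5e-10). Its cluster difference moved by -1.61 ± 0.15 (adjusted p = 5.5e-05). Gfap stood at 404, 533, 602 and 525 against 345, 385, 1468 and 1604 CPM. It was higher in RGL_young than in Immature-Astro in both P0 libraries and lower in both P5 libraries. The difference was 0.28 at P0 and -1.53 at P5, a move of -1.80 ± 0.14 (adjusted p = 1.2e-05), and the value over both ages was -0.73 (adjusted p = 0.04). That call was lost without the first or the second P5 library, at -0.50 and -0.36.

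The genes named for the largest moves of the cluster difference came in both directions. Cryab, a small heat shock protein, stood at 112, 117, 25.2 and 30.2 CPM in RGL_young and 61.2, 49.1, 132.1 and 131.9 CPM in Immature-Astro, higher in RGL_young at P0 and higher in Immature-Astro at P5 (-3.29 ± 0.33, adjusted p = 7.6e-05). Luzp2, at 161, 131.8, 37.7 and 68 against 115, 95.4, 196 and 178 CPM, crossed in the same way (-2.25 ± 0.30, adjusted p = 8.1e-04). Htra1, a secreted protease, stood at 81.5, 111, 69.2 and 54.8 against 122, 123, 387 and 370.4 CPM and rose in Immature-Astro (1.58, adjusted p = 6.6e-08) while it fell in RGL_young (-0.70, adjusted p = 0.048), a move of -2.28 ± 0.26 (adjusted p = 2.3e-04). Igfbp2 fell in RGL_young (-2.90) and in Immature-Astro (-0.59), so that its difference moved by -2.32 (adjusted p = 1.2e-04). Meis2, a homeobox gene, stood at 149.8, 141, 16.8 and 15.1 against 179.9, 256, 118 and 109 CPM and also fell in both (-2.17 ± 0.35, adjusted p = 0.0031).

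In the other direction, Sfrp1 moved by 1.31 ± 0.29 (adjusted p = 0.021): it fell in Immature-Astro (-1.01, adjusted p = 0.0034) and had 0.30 in RGL_young (adjusted p = 0.27). Gnb4 (1.55), Ttc9b (1.46), Ndufa9 (1.41) and Trappc1 (1.30) were the others of this rule. Each of these 5 lost its call when 1 or more of the libraries was left out, whereas Cryab, Igfbp2, Htra1, Luzp2 and Meis2 kept theirs under each alternative that gave an adjusted p. DESeq2 gave none for 9 of these 10 genes. Hopx, a homeodomain protein that marks adult radial glia-like cells, stood at 421, 329, 304 and 251 CPM in RGL_young and 493, 387, 149.7 and 148 CPM in Immature-Astro. It fell in Immature-Astro (-1.59 ± 0.15, adjusted p = 1.3e-08), had -0.44 ± 0.14 in RGL_young (adjusted p = 0.065), and its difference moved by 1.15 ± 0.16 (adjusted p = 0.0013). The sign of its difference was -0.33 at P0 and 0.82 at P5. Fabp7 (0.72, adjusted p = 2.6e-05) and Ccnd2 (0.52, adjusted p = 0.012) fell in both clusters and fell further in Immature-Astro.

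**Figure D4:**
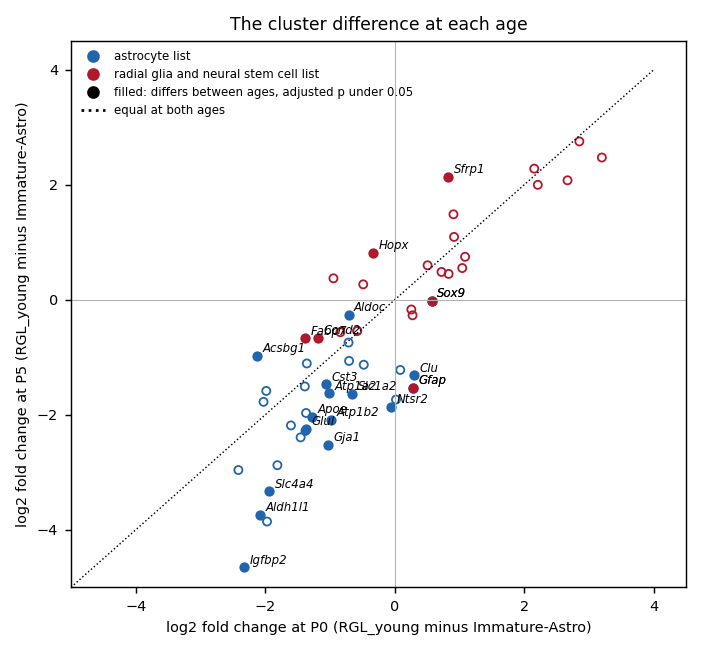
Log2 fold change between the clusters at P5 (vertical axis) against that at P0 (horizontal axis) for 33 astrocyte genes (blue) and 24 stem cell genes (red) with over 3 UMIs in each cluster at each age; filled points are genes whose difference moved between the ages, and Gfap, Sox9 and Slc1a3 stand on both lists. At P5 all 33 astrocyte genes lie below 0, at P0 5 lie above it, and their median is -1.27 at P0 and -1.74 at P5.

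Further genes changed with age within a cluster. In RGL_young the named genes that rose were Dbx2, a homeobox gene (2.59), Rgs5 (2.19), the chemokine Cxcl14 (2.19) and the haemoglobin genes Hba-a1 and Hbb-bs. Hba-a1 stood at 7.58, 7.60, 1950.0 and 39.7 CPM in RGL_young, and 1 cell of the first P5 library held 1653 UMIs of the blood list. The sizes of the changes depend on that library: Hba-a1 had 6.96 and Hbb-bs 6.79 with it and 2.33 and 3.08 without it, and both kept their calls. Those that fell were Meis2 (-3.19), Igfbp2, Fhl1 (-2.63), Sall3 (-2.23) and Xist. In Immature-Astro the named genes that rose were Gpr37l1, a receptor of astrocytes, at 7.20, 19.1, 167 and 151 CPM (3.45 ± 0.34, adjusted p = 1.9e-08), S100b (3.33), Hapln1 (3.15), Mycn and Rgs5. Mycn and Rgs5 had 0 to 1 UMI in each P0 sum, which makes their fold changes uncertain. Those that fell were Cyr61, a matrix-bound signal (-2.50), Nt5dc2 (-2.46), Fbln2 (adjusted p = 3.7e-06), Nes (-1.82) and Xist. Vim, the filament vimentin, fell in both, with log2 changes of -1.06 ± 0.10 and -1.15 ± 0.11, and stayed higher in RGL_young (0.55, adjusted p = 0.0017).

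The counts of lists that follow stand beside these shares of all genes tested. At P5, 3.27% were higher and 3.49% lower in RGL_young, and 9.51% and 9.36% in Immature-Astro. Of the 25 Wnt pathway genes tested, 1 was higher and 6 lower at P5 in RGL_young, and 3 were higher and 4 lower in Immature-Astro. The gene higher in RGL_young was Frzb (1.36). Of the BMP list 2 of 13 were higher and 1 lower in RGL_young and 4 higher and 0 lower in Immature-Astro, and of the Sonic hedgehog list 1 of 7 was higher in RGL_young and 0 in Immature-Astro, with 0 lower in either. The Wnt agonist Rspo3 fell in RGL_young from 37.9 and 83.6 CPM at P0 to 12.6 and 11.3 CPM at P5 (adjusted p = 8.1e-04), and the pathway targets Axin2 (-1.16, adjusted p = 0.045) and Nkd1 (-1.46, adjusted p = 0.0018) fell there too. Of the neurogenic genes, 7 of 18 in RGL_young and 8 of 18 in Immature-Astro were higher at P5, and 2 were lower in each. Neurod1, a granule neuron gene, stood at 13.3, 8.87, 56.6 and 86.9 CPM in RGL_young and 0, 5.45, 41 and 55.6 CPM in Immature-Astro, and averaged 701 CPM in Immature-GC. Immature-GC cells numbered 235 and 201 in the P0 libraries and 646 and 625 in the P5 libraries, and the part of free RNA from them in these low levels was not tested. Of the immediate early genes, which dissociation can induce, 6 of 12 in RGL_young and 9 of 12 in Immature-Astro were lower at P5, and 0 were higher. Fos stood at 2231, 2249, 1493 and 1478 CPM in RGL_young and 2087, 2339.8, 1308 and 1267 CPM in Immature-Astro. Between the clusters 1 of the 12 was higher in RGL_young, Jund (0.96), and 3 were lower, Junb (-0.37), Ier3 (-2.29) and Nr4a1 (-0.64). For that contrast, 8.59% of all genes tested were higher and 11.7% lower.

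The balance of the 2 clusters differed between the ages. Immature-Astro made up 29.1% and 26.5% of the cells of both clusters at P0 and 70.4% and 65.7% at P5, with exact 95% binomial intervals of 22.8 to 36.0%, 21.2 to 32.4%, 65.6 to 75% and 60.6 to 70.5%. The mean difference was 40.3 percentage points, and the exact two-sided permutation test gave p = 0.333, the smallest that 2 against 2 libraries allow. Of all cells of a library, Immature-Astro made up 2.37%, 2.83%, 12.1% and 11%, and RGL_young 5.77%, 7.85%, 5.10% and 5.77%. For RGL_young the lower P0 share and the higher P5 share were nearly equal (5.768% and 5.766%), while the Immature-Astro shares lay well apart. The intervals cover counting error only, and shares also depend on which cells survive dissociation.

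The same contrast was made between RGL and the juvenile and adult astrocyte clusters in the 3 later libraries with at least 20 cells of each, 170 RGL and 1027 astrocyte cells. These were a P19 library of C57Bl/6 females, a P23 library of CD-1 males, and a P120 library of hGFAP-GFP mice of both sexes, whose cells were sorted for GFP driven by a human GFAP promoter. Strain, sex, sort and age cannot be told apart there. Of 7470 genes tested, 1282 were called (17.2%), 520 higher in RGL (6.96%) and the others lower (10.2%). Without the P19 or the P23 library 833 and 773 were called. Among 6573 genes tested at both stages, 616 were called in the same direction at both, which is 45.1% of the 1365 early calls and 54.1% of the 1138 later calls. 14 were called in opposite directions. Of 36 astrocyte genes 32 were lower in RGL later, and of 27 stem cell genes tested 17 were higher and 1 lower.

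Whether the difference itself was another at P0 and P5 was tested in 1 fit, a test added after these results had been seen. It called 319 of 9246 genes (3.45%), 157 with a more positive difference early (1.7%) and 162 with a more negative one (1.75%). Without the P120 library 177 genes were called and without the P23 library 204. All 14 opposite genes were among the 319. Ccnd2, which was lower in RGL_young at P0 and P5, stood at 861, 645 and 191 CPM in RGL at P120, P19 and P23 and at 26.3, 68.5 and 35.3 CPM in the astrocytes. Its difference was -0.92 early and 3.36 later, -4.22 ± 0.33 apart (adjusted p = 9.1e-15). Fabp7 turned from -1.03 to 0.88 (adjusted p = 2.2e-07), a call that was lost without the library block. In Immature-Astro both genes stood above their level in any later astrocyte library.

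For other stem cell genes the difference was more positive later. Rhcg, an ammonium transporter that is among the RGL_young markers, had -0.22 at P0 and P5 and 3.77 later (adjusted p = 5.2e-05). Hopx had 0.23 and 1.33 (adjusted p = 0.02), and Cdk6 2.77 and 6.11 (adjusted p = 8.7e-04). Cdk6 stood at only 0 to 2.04 CPM in the later astrocytes, so the size of its later value is uncertain. Gdf10, which is not on the stem cell list, went the other way, with 3.42 early and -1.03 later. Its later value was not called, while the difference between the stages was (adjusted p = 8.5e-09). Frzb had 3.42 and 2.97 (adjusted p = 0.66), and S100b -3.47 and -3.73 (adjusted p = 0.89). Immediate early genes stood apart in the later libraries: all 9 tested were higher in RGL than in astrocytes, with a median of 2.60, and 8 genes of that list were among those with a more negative difference early. The part of dissociation in the later differences was not tested.

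**Figure D5:**
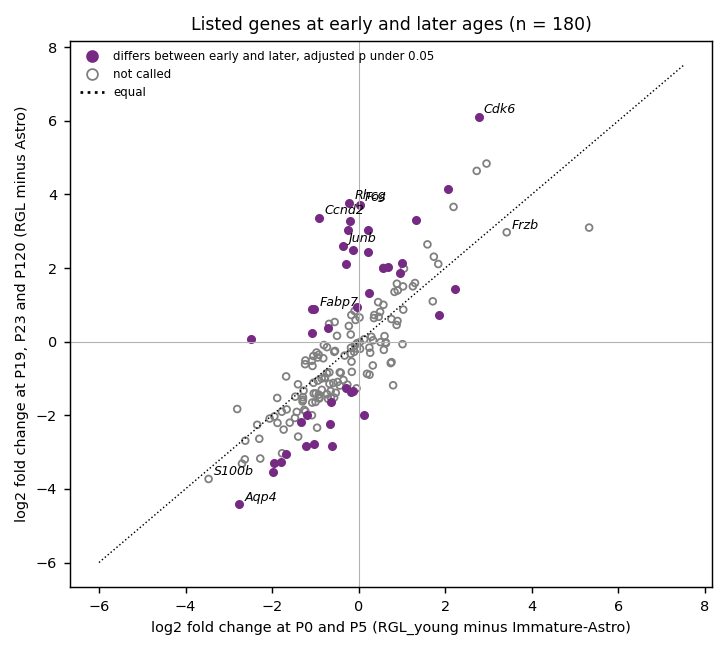
Log2 fold change of RGL minus astrocytes in the P19, P23 and P120 libraries (vertical axis) against RGL_young minus Immature-Astro at P0 and P5 (horizontal axis) for 180 listed genes with over 3 UMIs on each side; the 42 genes whose difference was called as another at the 2 stages are purple, and the dotted line marks equality. Frzb and S100b lie near the line, and Ccnd2, Fabp7 and Junb lie at upper left, below 0 early and above 0 later.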

How the data were processed

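The deposited table holds UMI counts per gene and cell, which the authors made with Cell Ranger on mm10, per the submitters' processing notes, with no version given in the sources used here. Clusters are those of the authors' cell table; no cell was reclustered and no doublet caller was run. The table has 27933 genes.

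UMI counts were summed per library and cluster and tested with edgeR 4.0.16 in R 4.3.3 (TMM scaling, filterByExpr, quasi-likelihood test, two-sided, Benjamini-Hochberg adjustment over all genes tested). The library was a block for the clusters. Changes with age used 4 groups of age and cluster that share 1 estimate of the spread. Standard errors are the fold change over the root of its F statistic. Alternatives were DESeq2 1.42.0, other scaling and filters, equal totals, leaving out each library or unusual cells, and fits without the block. The code was tested on simulated data.

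Both clusters of a library come from 1 capture, which pairs them; the correlation of their deviations over 3400 genes was 0.077 at P0 and 0.032 at P5. Named genes were the 12 (clusters) or 5 (age tests) with the largest called fold changes each way at a mean of 50 CPM or more and the same direction in every library; genes of the lists may be named too, and a few of them are not reported here. The comparison, the 23 gene lists and the markers were chosen with earlier results of these data known. For the 9 lists of other cells, counts of tested genes higher and lower in RGL_young follow, beside 8.59% and 11.7% of all genes tested. Pyramidal and granule neurons had 2 and 1 of 13, the oligodendrocyte line 0 and 2 of 4, mural and meningeal cells 2 and 0 of 3, and blood 2 and 0 of 2 (haemoglobin genes, whose sign turns without cells that held genes of other cells). GABA neurons, Cajal-Retzius and endothelial cells had 0 of 1 each and ependymal cells 0 of 2, and no gene of microglia and macrophages passed the filter.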

Additional observations from a re-analysis of the deposited data

Results flagged for a closer look

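The difference between RGL_young and Immature-Astro was called as another at P5 than at P0 for 253 genes, by the test of that difference. Among the named genes the difference was more positive at P5, on the log2 scale, for Gnb4 by 1.554, Ttc9b by 1.457, Ndufa9 by 1.406, Sfrp1 by 1.311 and Trappc1 by 1.303. It was more negative at P5 for Cryab (-3.293), Igfbp2 (-2.323), Htra1 (-2.28), Luzp2 (-2.253) and Meis2 (-2.174). All of these rest on 2 libraries an age, and age cannot be told apart from the capture or from the sex of the pooled animals.

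The difference at P0 and P5 minus that at P19, P23 and P120 was -4.225 for Ccnd2 and -1.837 for Fabp7. Both genes were singled out after their values were seen, as the stem cell list's genes called in opposite directions at the 2 stages. Besides age, the P19 and P120 libraries differ from the early ones in strain, and the P120 library in sorting.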

How the results depend on the processing

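Of 957 alternative values for 81 results on named genes, 913 kept their direction and side of the threshold, 30 lost the call, 1 gained it and 13 turned sign. Most of these genes were chosen for large called fold changes in these same sums, and others were added by hand. That count therefore says little about how stable other genes are, and the counts of called genes below moved more. DESeq2 called 655 genes between the clusters, 83 for the cluster difference by age, 180 and 633 for age in RGL_young and Immature-Astro, and 656 later, each of them also edgeR's; of 226 early minus later, 214 were. Without the replicate block 1018 genes were called between the clusters, 596 later and 43 for the early minus later difference, where Fabp7 lost its call. Without it, the fits between clusters, early or later, also have no term for age, so changes with age enter their spread. The early minus later fit then keeps only a term for the stage. P0 libraries alone gave 892 and P5 libraries alone 1960; fitted alone, RGL_young gave 336 with age and Immature-Astro 1597. Leaving out 1 library gave 906 to 1462 calls between the clusters (lowest without the second P5 library), 75 to 282 by age (75 and 154 without the second and the first P0 library), 252 to 417 and 845 to 1058 with age in RGL_young and Immature-Astro, 773 to 981 later and 177 to 321 for early minus later. Where an age then has 1 library, it is assumed to vary like the others. The cause of these moves was not tested.

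Sign turned for Nes (0.087 without the block, 0.27 at P5 alone, -0.47 to 0.029 leaving out 1 library) and Hopx (-0.31 at P0 alone, -0.0191 to 0.43). It also turned for Sox2 (0.29 at P0 alone, -0.16 to 0.084, with 0.0065 without the second P5 library) and Gfap (0.29 at P0 alone). Hba-a1 (-0.27) and Hbb-bs (-0.045) turned without cells that held genes of other cells, and had -0.81 to 4.07 and -0.12 to 3.91 leaving out 1 library. Low genes were limited by depth, the smallest sum holding 277863 UMIs.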
